A study of Mus musculus with 6 samples.

Results

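The 10 genes described here encode enzymes that carry the amino acid tryptophan toward NAD, with a side branch, a salvage enzyme and a related dehydrogenase. They are Afmid, Kmo, Kynu, Haao, Acmsd, Aldh8a1, Qprt, Nadsyn1, Nampt and Aspdh, 10 of the 24422 gene symbols in the count tables. All 10 were found by symbol, and all 10 passed the filter on low counts. They were chosen by their place in the pathway and because several were known to be lower in iron deficiency in these same kidneys, so the differences between the diet groups below are a description of the genes and not a test of them. RNA-seq had been done on kidneys of wild type C57BL/6 pups at postnatal day 15. The 3 control kidneys came from pups whose dams ate a chow with 220 ppm iron, and the 3 iron deficient (FeD) kidneys from pups whose dams ate a synthetic chow with 2 to 6 ppm iron. Dams were 8 weeks old when the diets began, and each diet ran from before mating through pregnancy and nursing. Every pup carried the same genotype, so the groups differed by maternal diet alone as far as the labels say. The control chow and the synthetic chow may differ in more than iron, and the number of litters was not given in the sources used here, so chow, litter and iron cannot be told apart. The labels call the 6 kidneys separate samples, and the spread between them is the only error that entered any test.

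Most tryptophan that is not built into protein is broken down along the kynurenine pathway, and liver and kidney are the organs best known for running it to completion. The heme enzymes Tdo2, Ido1 and Ido2 open the indole ring, the formamidase Afmid releases kynurenine, and the flavin monooxygenase Kmo and the pyridoxal phosphate enzyme Kynu turn it into 3-hydroxyanthranilate. Haao, a dioxygenase with ferrous iron in its active site, opens that ring to an unstable semialdehyde which stands at a fork. Left alone, the semialdehyde closes to quinolinate, which Qprt commits to NAD. Nadsyn1 adds the amide group to a later intermediate in the last step. Acmsd instead decarboxylates it, and Aldh8a1 oxidizes the product toward glutarate and energy metabolism. Nampt reaches NAD by another road, the salvage of nicotinamide. Aspdh is named for its likeness to microbial aspartate dehydrogenases, which start NAD synthesis from aspartate, and its role in mammals is less settled.

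Promoters of the members at the extremes of the diet difference are shown because these genes moved by the largest amounts, or against the rest, in the same kidneys. The sequences are those of RefSeq in the GRCm38.p6 assembly, in which 9 of the 10 members had an entry. Each runs 5′ to 3′ on the gene's strand from 250 bases before to 50 bases after the transcript start. Capitals mark matches to any of 3 short motifs, which were chosen after the sequences had been seen and searched on both strands: CAAAGTCC, a form of the site known for hepatocyte nuclear factor 4, TTTGACC, a form of the nuclear receptor half-site, and ACGTG, the core known for hypoxia response elements. Aspdh, which was lowest in FeD relative to control, lies at chr7:44465185-44465484 on the plus strand. Aldh8a1 lies at chr10:21377050-21377349 on the plus strand and Haao at chr17:83846741-83847040 on the minus strand, and both were among the 3 members with the largest falls. Nampt, the member that was higher in FeD, lies at chr12:32820085-32820384 on the plus strand.
Aspdh: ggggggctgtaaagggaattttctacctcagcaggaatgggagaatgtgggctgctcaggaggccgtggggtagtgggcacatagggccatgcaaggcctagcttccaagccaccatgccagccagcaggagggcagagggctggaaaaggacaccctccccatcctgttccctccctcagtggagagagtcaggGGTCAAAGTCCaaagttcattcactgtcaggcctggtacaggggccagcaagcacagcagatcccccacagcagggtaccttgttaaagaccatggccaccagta
Aldh8a1: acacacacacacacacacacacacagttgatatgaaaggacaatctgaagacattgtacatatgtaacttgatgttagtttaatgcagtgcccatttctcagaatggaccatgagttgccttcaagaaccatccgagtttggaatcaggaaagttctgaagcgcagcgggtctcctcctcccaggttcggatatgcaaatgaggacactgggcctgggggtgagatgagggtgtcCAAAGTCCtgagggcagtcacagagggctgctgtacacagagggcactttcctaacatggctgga
Haao: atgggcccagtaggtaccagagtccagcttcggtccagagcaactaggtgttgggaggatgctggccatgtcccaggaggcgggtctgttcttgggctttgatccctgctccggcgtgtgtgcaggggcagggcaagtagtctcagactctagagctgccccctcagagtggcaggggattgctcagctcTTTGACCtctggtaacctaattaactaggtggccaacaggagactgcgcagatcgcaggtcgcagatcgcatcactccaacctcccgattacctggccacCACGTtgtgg
Nampt: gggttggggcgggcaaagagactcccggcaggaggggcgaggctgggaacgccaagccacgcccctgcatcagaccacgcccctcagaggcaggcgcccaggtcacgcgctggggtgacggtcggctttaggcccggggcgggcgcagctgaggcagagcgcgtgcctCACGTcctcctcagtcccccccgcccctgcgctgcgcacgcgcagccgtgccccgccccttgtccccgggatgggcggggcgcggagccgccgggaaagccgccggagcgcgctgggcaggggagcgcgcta

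The Aspdh window carried CAAAGTCC beginning 52 bases before the start, fused to TTTGACC read on the other strand as GGTCAAA from 55 bases before it, so that the capitals form a single run. Aldh8a1 carried CAAAGTCC from 15 bases before the start. CAAAGTCC was in 2 of the 9 member promoters and in 1.42% of 32851 promoters of the same length. TTTGACC was in 4 of the 9, Aspdh, Haao (60 bases before the start), Kmo (91 bases before) and Acmsd (234 bases before), against 2.53% of all promoters. ACGTG was in 3, against 19.6% of all: Afmid (12 bases before the start), Nampt (82 bases before) and Haao, where it fell at base 41 of the transcript. Qprt and Nadsyn1 carried none of these letters in this window. The promoters also differed in composition. Nampt was 76.3% G or C with 36 CG dinucleotides and Nadsyn1 65.7% with 27, whereas Aspdh held 1 CG at 58.3% and Acmsd 2 at 42%. The other 5 lay between, at 44.3% to 60.3% and 4 to 18 CG, and the median of all promoters was 52.67% and 7 CG. A match is a description of letters and not evidence of binding. Because the motifs were chosen after these sequences had been seen, nothing is read from the member counts beside the shares of all promoters.

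The libraries held 13732173 to 20853293 counted reads, so that 3 counts, taken as the smallest readable signal, stood for 0.144 to 0.219 CPM, the usual unit of counts scaled to library size. These floors cover counting error only. Values per kidney below are normalized counts, which are raw counts scaled by TMM, the trimmed mean of M values, to the mean library size. Of 15145 genes tested by the edgeR quasi-likelihood test, 22.4% were higher and 23.3% lower in FeD at a Benjamini-Hochberg adjusted P under 0.05. At a change of 2-fold or more as well, 4.34% were higher and 5.69% lower, and the groups did not overlap for 58.1%. The median log2 fold change over all tested genes was -0.0018. The kidney label held, since markers of proximal tubule, thick ascending limb, collecting duct and podocyte were abundant in all 6 libraries, and summed hepatocyte markers were at most 3.13 CPM. FeD kidney 2 stood apart by 3 markers of adrenal cortex, Star, Cyp11a1 and Cyp11b1, which summed to 393.1 CPM there and to 7.22 to 16.2 CPM in the other 5. Control kidney 1 also held 123 normalized counts of Cyp11a1, against 989 in FeD kidney 2 and 4 to 5 in the remaining kidneys. Xist was at 14238 to 16079 in control kidneys 1 and 2 and FeD kidney 3, and at 28 to 48 in the others, where the Y-linked genes were high, so the sexes were mixed in both groups. Member values without FeD kidney 2 and with a term for sex are given below. Tfrc, the transferrin receptor that iron-poor cells commonly raise by stabilizing its transcript, was lower in FeD by 0.47 on the log2 scale (edgeR adjusted P = 0.0021), and the iron transporter Slc11a2 differed by -0.03 (adjusted P = 0.67).

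**Figure D1:**
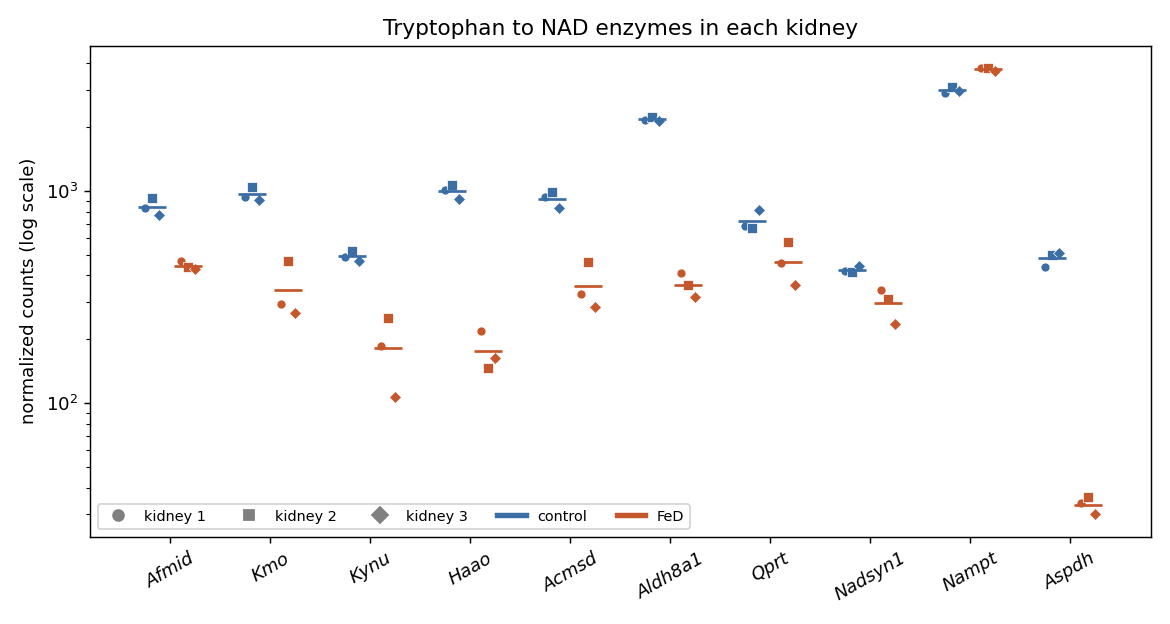
Normalized counts of the 10 enzymes (log axis) in each of 3 control and 3 FeD kidneys, in pathway order. Symbols mark the kidney number and horizontal bars the group means. FeD points lie below all control points for 9 genes, most widely for Aspdh (30 to 36 against 438 to 512), and above them for Nampt.

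In FeD kidneys 9 of the 10 enzymes were lower than in every control kidney, and Nampt was higher than in every control kidney. The groups did not overlap, in either direction, for 58.1% of all tested genes. By the edgeR criterion above, 9 were lower and 1 was higher, against 23.3% and 22.4% of all genes, and 6 were lower by at least 2-fold, against 5.69%. Without control kidney 3, the count of lower members was 7, because Qprt and Nadsyn1 no longer met the criterion. Nothing is read from these counts, because the same contrast chose the genes. The median log2 fold change of the members was -1.42, and single members ran from -3.85 for Aspdh to 0.33 for Nampt. Means carry ± SD over the 3 kidneys of a group and log2 fold changes carry ± standard error. Because the RNA came from all cells of a kidney together, fewer cells that make an enzyme and less of its transcript per cell cannot be told apart.

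Afmid frees kynurenine from its formyl precursor. It was at 832, 930 and 772 normalized counts in control kidneys 1, 2 and 3 and at 466, 439 and 428 in FeD kidneys 1, 2 and 3. Each FeD kidney lay well under the lowest control, and the FeD kidneys stood close together. The FeD mean, 444 ± 19.5, was 52.6% of the control mean, 845 ± 79.8, a log2 fold change of -0.93 ± 0.09. Leaving out each kidney in turn moved it between -0.99 and -0.86.

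Kmo, on the outer mitochondrial membrane, adds the hydroxyl group that commits kynurenine to 3-hydroxykynurenine. Control kidneys held 940, 1043 and 910 normalized counts of it and FeD kidneys 292, 470 and 267. The groups did not overlap, but FeD kidney 2 sat well above the other two, which gave FeD a coefficient of variation (CV) of 32.3% against 7.23% in control. Kmo in FeD averaged 35.6% of control, a log2 fold change of -1.50 ± 0.20. Without FeD kidney 2, the kidney with the highest adrenal markers, the difference was larger, -1.77.

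Kynu cleaves alanine from the kynurenines. Its normalized counts were 490, 521 and 468 in control and 187, 251 and 107 in FeD kidneys. FeD kidney 2 was again the highest of its group and FeD kidney 3 the lowest, and the FeD CV of 39.6% was the widest of any member in either group. The FeD mean was 36.8% of control, a log2 fold change of -1.46 ± 0.25. Single kidneys left out moved it from -1.73, without FeD kidney 2, to -1.17, without FeD kidney 3.

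Haao had the largest fall among the members on the direct line to quinolinate. Control kidneys gave 1008, 1063 and 918 normalized counts and FeD kidneys 218, 147 and 164. Here FeD kidney 2 was the lowest of its group, the reverse of its rank for Kmo and Kynu. The FeD mean of 176 ± 37.2 was 17.7% of the control mean of 997 ± 73.2, 5.66-fold lower, with a log2 fold change of -2.49 ± 0.14. Leaving out single kidneys kept it between -2.66 and -2.37. Haao is also the member whose catalysis depends on iron, and these values are of its transcript only.

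Both enzymes of the glutarate side branch were lower in FeD by more than 2-fold. Acmsd, which takes the semialdehyde away from quinolinate and so limits how much tryptophan reaches NAD, was at 937, 991 and 829 normalized counts in control and at 328, 461 and 283 in FeD kidneys. The rank of the FeD kidneys was that of Kmo and Kynu, with kidney 2 highest and kidney 3 lowest. Acmsd in FeD averaged 38.9% of control, a log2 fold change of -1.37 ± 0.17. Aldh8a1, which oxidizes the next semialdehyde, was at 2155, 2239 and 2142 in control and at 411, 360 and 317 in FeD kidneys. Its control kidneys were the most uniform of any member, with a CV of 2.41%, and every FeD kidney was far below them. The fall of Aldh8a1 was 6.01-fold, to 16.6% of control, with a log2 fold change of -2.59 ± 0.10 that stayed between -2.68 and -2.48 when single kidneys were left out.

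The enzymes that finish NAD differed less between the diets. Qprt, which joins quinolinate to phosphoribosyl pyrophosphate, was at 682, 668 and 810 normalized counts in control and at 460, 575 and 360 in FeD kidneys. The groups did not overlap, but FeD kidney 2 came closer to the lowest control than either of its group did. Qprt in FeD averaged 64.6% of control, a log2 fold change of -0.64 ± 0.16, and leaving out single kidneys moved it between -0.79 and -0.47. Nadsyn1, the glutamine-dependent NAD synthetase that the route from nicotinic acid also uses, was at 420, 416 and 443 in control and 343, 310 and 236 in FeD kidneys. FeD kidney 3 was lowest, as for most members, and FeD kidney 1 was nearest to control. Nadsyn1 in FeD averaged 69.5% of control, a log2 fold change of -0.53 ± 0.14, which left-out kidneys moved between -0.63 and -0.37.

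Nampt, the rate-limiting enzyme of nicotinamide salvage, was the only member higher in FeD. Control kidneys held 2885, 3093 and 2965 normalized counts and FeD kidneys 3789, 3790 and 3696. The 3 FeD kidneys were nearly equal, with a CV of 1.44%, and all lay above the highest control. The FeD mean was 126% of control, a log2 fold change of 0.33 ± 0.06, and left-out kidneys moved it only between 0.31 and 0.36.

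Aspdh had the largest difference of all 10. Its normalized counts were 438, 498 and 512 in control and 34, 36 and 30 in FeD kidneys. Even the highest FeD kidney was far below the lowest control. The FeD mean, 33.5 ± 3.10, was 6.94% of the control mean, 483 ± 39.4, so Aspdh was 14.4-fold lower, a log2 fold change of -3.85 ± 0.13. No kidney decided this value, which stayed between -3.92 and -3.77 when each was left out. The low FeD values were still read well above the floor of 3 counts.

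The members did not all follow the same kidneys within a group. Among controls, kidney 2 was highest for 7 members (Kmo, Kynu, Haao, Afmid, Acmsd, Aldh8a1 and Nampt), and kidney 3 was highest for Qprt, Nadsyn1 and Aspdh. Control kidney 3 was lowest for 6 members, the same 7 apart from Nampt. Among FeD kidneys, kidney 3 was lowest for 9 members, all but Haao, and kidney 2 was highest for 6 (Kmo, Kynu, Acmsd, Qprt, Nampt and Aspdh). The median within-group CV of the members was 12.6%, beside 7.36% over the 11832 tested genes whose mean reached 100 normalized counts. FeD CVs exceeded control CVs for 8 members, and Afmid and Nampt were the exceptions. Without FeD kidney 2, the log2 fold changes were -0.90 for Afmid, -1.77 for Kmo, -1.73 for Kynu, -2.37 for Haao, -1.57 for Acmsd, -2.56 for Aldh8a1, -0.79 for Qprt, -0.54 for Nadsyn1, 0.35 for Nampt and -3.89 for Aspdh. Each kept its direction, and 7 of the 10 were larger in size without that kidney. With sex as a term, an alternative added after the data had been seen, they were -1.57 for Kmo, -1.63 for Kynu, -2.48 for Haao, -0.90 for Afmid, -1.41 for Acmsd, -2.63 for Aldh8a1, -0.77 for Qprt, -0.63 for Nadsyn1, 0.33 for Nampt and -3.90 for Aspdh. The direction was the same for every member.

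**Figure D2:**
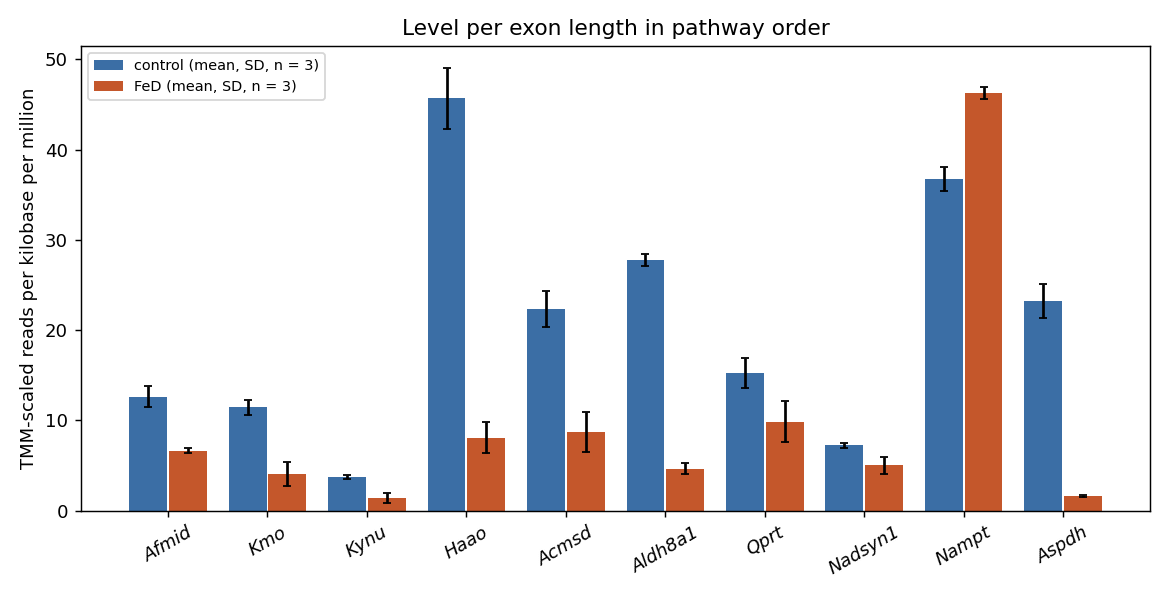
Levels of the 10 enzymes in TMM-scaled RPKM (linear axis from 0), as mean and SD of 3 control and 3 FeD kidneys. Haao stands highest among control levels (45.7) and lower among FeD levels (8.08), while Nampt is highest in FeD (46.3).

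To compare enzymes with each other, counts were divided by exon length (RPKM, reads per kilobase of exon scaled to library size, here by TMM). In control kidneys the highest level was that of Haao, 45.7 ± 3.36 RPKM. Below it came Nampt at 36.7 ± 1.29, Aldh8a1 at 27.8 ± 0.671, Aspdh at 23.3 ± 1.90 and Acmsd at 22.4 ± 2.00 RPKM. Then followed Qprt at 15.2 ± 1.65, Afmid at 12.6 ± 1.19, Kmo at 11.4 ± 0.827, Nadsyn1 at 7.22 ± 0.248 and Kynu at 3.69 ± 0.200 RPKM. Neighbours in this order had kidney values that overlapped for Aspdh and Acmsd and for Afmid and Kmo, and not for the other pairs. Haao and Aldh8a1 thus stood above Qprt and Nadsyn1 in every control kidney.

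The order was different in FeD kidneys. Nampt stood alone at the top with 46.3 ± 0.665 RPKM. Qprt (9.85 ± 2.28), Acmsd (8.69 ± 2.25), Haao (8.08 ± 1.70) and Afmid (6.63 ± 0.291 RPKM) followed, each overlapping the next in its kidney values. A gap separated Afmid from Nadsyn1 (5.02 ± 0.932), which overlapped Aldh8a1 (4.63 ± 0.601), which overlapped Kmo (4.07 ± 1.31 RPKM). Aspdh (1.61 ± 0.149) and Kynu (1.36 ± 0.539 RPKM) came last and overlapped each other. Haao thus moved from the first to the fourth place and Aspdh from the fourth to the ninth. These levels depend on the length used. With the longest annotated transcript in place of all exons, 7 of the 10 control levels rose by more than 1 SD. The largest rises were those of Kynu, to 9.94 RPKM, and Aldh8a1, to 45.1 RPKM, which put Aldh8a1 above Nampt in control. The places and overlaps given above therefore hold only for all exons as the length.

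Ratios of these levels within a kidney describe the fork without the scaling between libraries. Acmsd over Qprt was 1.58, 1.70 and 1.18 in control kidneys and 0.819, 0.920 and 0.903 in FeD kidneys. Every FeD kidney was below every control kidney in this ratio. Which of the enzymes stood higher in a control kidney depended on the length used, since with the longest transcript (added after the data were seen) the ratio was 1.22, 1.32 and 0.912 in control and 0.635, 0.713 and 0.700 in FeD kidneys. Haao over Acmsd was 2.03, 2.02 and 2.09 in control and 1.25, 0.600 and 1.09 in FeD kidneys, so that the enzyme that makes the semialdehyde stood less far above the enzyme that removes it, or below it, in all 3. Nampt over Qprt was 2.46, 2.69 and 2.13 in control and 4.79, 3.83 and 5.97 in FeD kidneys. Nampt thus stood further above Qprt in every FeD kidney than in any control kidney. The ratios come from the same contrast as the choice of genes and are given with no test, and enzyme activity, protein and NAD were not measured in these files.

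The members lie apart in the genome, on chromosomes 1, 2, 7, 10, 11, 12 and 17 (mm9, GENCODE annotation of the NCBIM37 assembly), and all are protein coding. Acmsd spans chr1:129625990-129664141 with 10 exons and Kmo spans chr1:177550512-177592247 with up to 15, both on the plus strand. Kynu spans chr2:43410849-43538235 on the plus strand. Chromosome 7 holds Aspdh (chr7:51720761-51723127, plus strand), Qprt (chr7:134250628-134265740, minus strand) and Nadsyn1 (chr7:150981489-151008754, minus strand). Aldh8a1 spans chr10:21097097-21116391 and Afmid chr11:117670982-117701222, both on the plus strand. Nampt spans chr12:33505200-33538234 on the plus strand, and Haao spans chr17:84230696-84246130 on the minus strand. Of windows of 100 bases in the transcripts of each member, 0 recurred in another protein-coding gene of the annotation. Pseudogenes and other non-coding copies were not searched.

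Overlap of exons with other genes was limited to Afmid. These exons shared 83 bases (2.21%) with Tk1 on the opposite strand and 136 bases (3.62%) with Syngr2 on the same strand, and the strand setting of the counting was not given in the sources used here. Tk1, a thymidine kinase of dividing cells, was lower in FeD itself, by 1.16 on the log2 scale (edgeR adjusted P = 0.00076), and its part in the Afmid value was not tested. Among the nearest neighbours, Josd2 began 223 bases beyond Aspdh on the same strand and fell by 1.43 on the log2 scale (edgeR adjusted P = 3.7e-05), a smaller difference than that of Aspdh, -3.85. Dhcr7, 296 bases from Nadsyn1 on the other strand, differed by -0.25 (adjusted P = 0.56), and Opn3, 305 bases from Kmo, by -0.10 (adjusted P = 0.67). Fh1, the fumarase gene whose span overlaps that of Kmo on the other strand, fell by 0.30 (adjusted P = 0.0053).

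The rest of tryptophan and NAD metabolism, 55 further genes of which 49 had enough counts to test, are described next. The 6 without enough counts were Tdo2, Ido1, Ido2, Tph1, Il4i1 and Nmrk2. By the edgeR test 8 rose, 18 fell and 23 did not pass, beside 22.4% higher and 23.3% lower among all genes. At 2-fold or more 0 rose and 3 fell (Slc22a13, Nnmt and Nnt), against 4.34% and 5.69%, and 29 of the 49 had an unadjusted P under 0.05, against 53.6% of all genes. With DESeq2 as well, 0 rose and 3 fell by 2-fold, and without control kidney 1 or without FeD kidney 2 the count that rose was 1, Tph1, which has few counts. The groups did not overlap for 30 of the 49, beside 58.1% of all genes. Their median log2 fold change was -0.18, with a range of -1.14 to 0.75, against -1.42 for the 10 members. The members were chosen with this contrast known, so nothing is read from the gap between these medians.

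**Figure D3:**
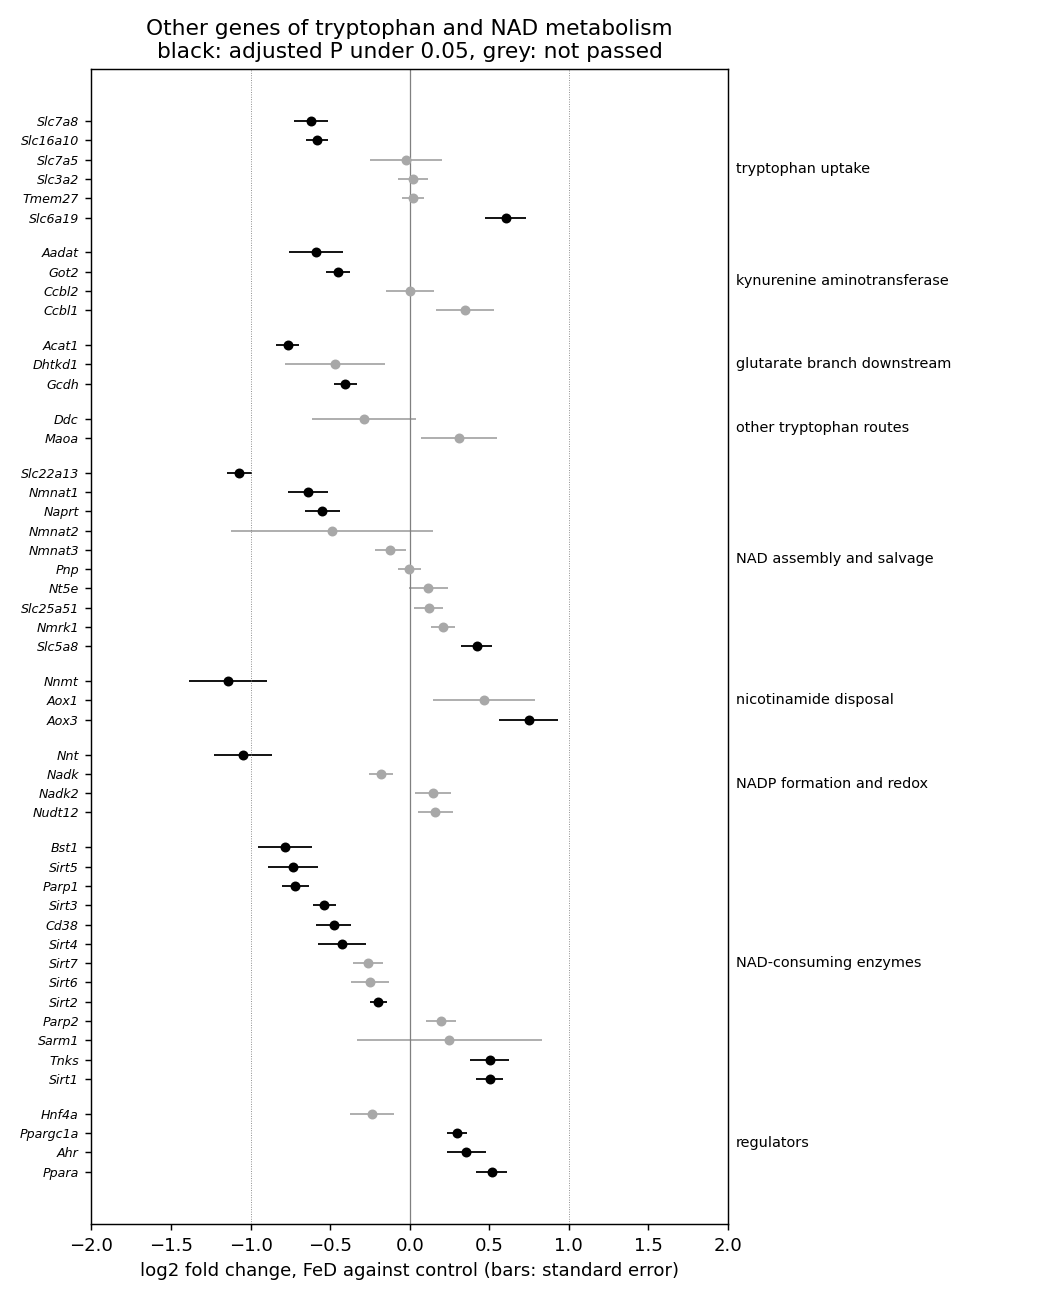
Log2 fold changes of FeD against control for 49 other tested genes of tryptophan and NAD metabolism, with standard errors, grouped by role. Black points passed an adjusted P of 0.05 and grey points did not. 3 genes (Slc22a13, Nnmt and Nnt) lie beyond the dotted line of a 2-fold fall and 0 beyond that of a 2-fold rise.

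Transcripts of tryptophan uptake genes were mixed in direction. Slc6a19, the apical transporter that reclaims neutral amino acids including tryptophan, rose from 2272, 2488 and 2270 to 4025, 3872 and 2792 normalized counts (log2 fold change 0.60, adjusted P = 0.0062). The basolateral exits Slc7a8 (-0.62, adjusted P = 0.0021) and Slc16a10 (-0.58, adjusted P = 0.00035) fell, and the other 3 uptake genes, Slc7a5, Slc3a2 and Tmem27, did not pass. The dioxygenases that begin the pathway were scarcely detected. Tdo2 was at 1.1 to 5.3, Ido1 at 1 to 6.6 and Ido2 at 1.7 to 14.2 normalized counts across the 6 kidneys, and none of them entered the test. A diet difference in these entry enzymes was therefore not detectable at this depth, in contrast with the enzymes from Afmid onward.

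Around the members, kynurenine can also be transaminated to kynurenate, and 2 of the 4 aminotransferases fell. Aadat was abundant and fell from 19578, 20895 and 21747 to 10930, 12384 and 18048 normalized counts, with FeD kidney 3 close to control (log2 fold change -0.59, edgeR adjusted P = 0.023). This call was lost when control kidney 2, control kidney 3, FeD kidney 1 or FeD kidney 2 was left out. Got2 fell by 0.45 on the log2 scale (adjusted P = 0.0021). Ccbl1 (now Kyat1) differed by 0.35 (adjusted P = 0.15) and passed without FeD kidney 3, at 0.57, and Ccbl2 (now Kyat3) differed by 0.00 (adjusted P = 0.99). Beyond Aldh8a1, the glutarate route continues to acetyl-CoA, and 2 of its 3 listed genes fell, Acat1 by 0.77 (adjusted P = 0.00014) and Gcdh by 0.40 (adjusted P = 0.0029). Dhtkd1 was at -0.47 (adjusted P = 0.25) and passed at -0.89 without FeD kidney 2. Of the other tryptophan routes, Ddc (-0.28) and Maoa (0.31) did not pass, and Ddc passed at -0.82 without FeD kidney 2.

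Beside Qprt and Nadsyn1, assembly and salvage of NAD gave 1 gene that rose, 3 that fell and 6 that did not pass. Nmnat1, the nuclear adenylyltransferase that serves every route to NAD, fell from 150, 164 and 157 to 104, 101 and 97 normalized counts (log2 fold change -0.64, adjusted P = 0.0043). Naprt, which starts the route from nicotinic acid, fell by 0.55 (adjusted P = 0.0043). Slc22a13, a renal transporter known to carry nicotinate, fell by 1.07 (adjusted P = 5.6e-05), from 1063, 1118 and 1173 to 499, 554 and 544. Slc5a8, another carrier of nicotinate and of short monocarboxylates, rose by 0.42 (adjusted P = 0.0088). Nmrk1, which salvages nicotinamide riboside, was at 0.21 (adjusted P = 0.056). Nmnat2 had few counts and was at -0.49 (adjusted P = 0.56), or -1.61 and past the threshold without FeD kidney 2. Nmnat3 (-0.12), Pnp (-0.0042), Nt5e (0.12) and Slc25a51 (0.12) did not pass.

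Genes that use or remove the products were likewise divided. Nnmt, which methylates nicotinamide for disposal, fell from 62.3, 75.2 and 59.6 to 36, 22.1 and 30.2 normalized counts (log2 fold change -1.14, adjusted P = 0.006), and Aox3 rose by 0.75 (adjusted P = 0.011). Nnt, the mitochondrial transhydrogenase that makes NADPH at the cost of NADH, fell by 1.05 (adjusted P = 0.0023), from 4935, 5178 and 8235 to 3066, 2797 and 2997, with control kidney 3 above the other controls. Without control kidney 3 the fall of Nnt was 0.78. Among 13 NAD-consuming enzymes 2 rose and 7 fell. Sirt1 rose by 0.50 (adjusted P = 0.002) and Tnks by 0.50 (adjusted P = 0.012, lost without control kidney 2), whereas Parp1 fell by 0.72 (adjusted P = 0.00037), Sirt3 by 0.54 (adjusted P = 0.00074) and Sirt5 by 0.73 (adjusted P = 0.0065). The NAD glycohydrolases Bst1 and Cd38 fell by 0.78 and 0.48 (adjusted P = 0.0065 and 0.0086). Sirt2 (-0.20) and Sirt4 (-0.43) passed as well, and both calls were lost when any of control kidneys 1 to 3 or FeD kidney 2 was left out. Sirt4 held its call in only 4 of 13 alternatives and lost it also without FeD kidney 1, with DESeq2's size factors, with no filter, with at least 10 counts in every sample and with the sex term. Sirt6 (-0.25), Sirt7 (-0.26), Parp2 (0.20) and Sarm1 (0.25) did not pass, nor did Aox1 (0.47), Nadk (-0.18), Nadk2 (0.15) and Nudt12 (0.16).

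Of 4 genes listed as regulators, Ppara rose by 0.52 on the log2 scale (adjusted P = 0.0034) and Ppargc1a by 0.30 (adjusted P = 0.0049). Ahr, the receptor that kynurenines can activate, rose by 0.36 (adjusted P = 0.042), a call that held in 7 of 13 alternatives. The Ahr call was lost with no filter and with the replicate number as a block. It was also lost when any of control kidneys 1 to 3 or FeD kidney 3 was left out. Hnf4a was at 7738, 8364 and 8022 normalized counts in control and at 7941, 7206 and 5312 in FeD kidneys (log2 fold change -0.24, adjusted P = 0.19). For Hnf4a, FeD kidney 3 was the lowest, and FeD kidney 1 lay within the control range. The part of these 4 genes in the member values was not tested.

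**Figure D4:**
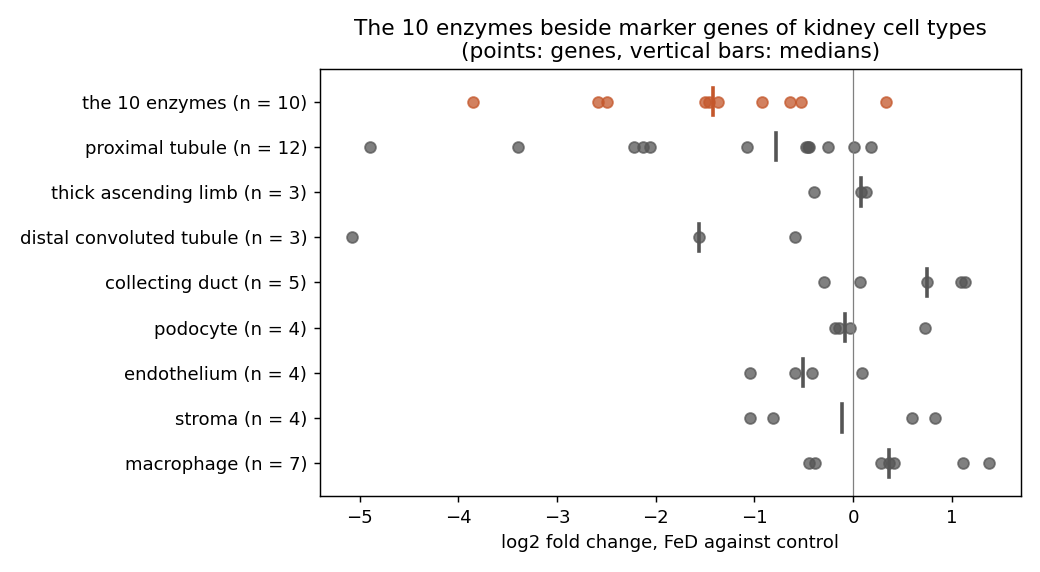
Log2 fold changes of FeD against control for the 10 enzymes and for tested marker genes of kidney cell types, with each point a gene and each vertical bar the median of its row. The enzymes, which were chosen with this contrast known, have a median of -1.42 and the proximal tubule markers of -0.78. Both rows reach beyond -3.

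The proximal tubule is the nephron segment best known for several of these enzymes, though the cells that made each member were not measured here. Its markers moved in the same kidneys. Of 12 proximal tubule markers, 9 fell, 6 of them by at least 2-fold, 0 rose and 3 did not pass, and their median log2 fold change was -0.78. Their summed level was 12060 to 13000 CPM in control and 5687 to 6206 CPM in FeD kidneys. The markers were not uniform. The glucose transporter Slc5a2 fell by 4.89, the inositol oxygenase Miox fell by 3.39 and the phosphate transporter Slc34a1 by 2.22 on the log2 scale, whereas the endocytic receptors Lrp2 and Cubn fell by 0.48 and 0.45 and the water channel Aqp1 by 0.45. The lactate transporter Slc5a12 (0.18), Slc27a2 (0.01) and Acsm2 (-0.26) did not pass. Beside these, the log2 fold changes of the 9 lower enzymes ran from -3.85 to -0.53. The part of the proximal tubule markers in the enzyme values was not tested.

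Markers of other cell types are given in the same way. Collecting duct markers summed to 1234 to 1721 CPM in control and 1873 to 2976 CPM in FeD kidneys, with 3 of 5 higher and 1 lower. Distal convoluted tubule markers summed to 1219 to 1530 and 347 to 545 CPM, with 2 of 3 lower. Endothelial markers summed to 566 to 591 and 372 to 492 CPM, with 3 of 4 lower. Stromal markers summed to 1605 to 1711 and 992 to 1270 CPM, with 2 of 4 higher and 2 lower. Summed macrophage markers overlapped between the groups (138 to 152 and 135 to 157 CPM), with 3 of 7 higher and 1 lower, as did those of thick ascending limb (0 of 3 passed) and podocyte (1 of 4 higher). Hba-a1 and Hbb-bs were at 0 in all 6 libraries, and the reason was not tested. The erythroid enzyme Alas2 was at 336, 761 and 488 normalized counts in control and at 413, 200 and 92 in FeD kidneys, and did not pass. The 0 values therefore do not show that blood RNA was absent. Of the sums that did not overlap between the groups, that of collecting duct was higher in FeD. Those of distal convoluted tubule, endothelium and stroma were lower, though single stromal markers went both ways. Their part in the enzyme values was not tested.

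For each member, the 2 tested genes outside the 10 with the highest Pearson r of log2 CPM over the 6 kidneys were found as a description of likeness. With 2 groups that differ, such values are high for many genes. Kmo and Acmsd shared their closest gene, Slc16a14 (r = 0.998 for both), and were followed by Id2 and Crip1. Kynu was closest to C2 and Pm20d1, Haao to Tnfrsf26 and Top2a, and Afmid to Bpgm and Gm12504. Aldh8a1 was closest to Ppox and Tpx2 and Aspdh to Psme2 and Khk. Qprt was closest to Rnf208 and Capn6 (r = 0.993 for both), Nadsyn1 to Exosc5 and Cdc20, and Nampt to Camk2n1 and Snhg3. No gene other than Slc16a14 was named for more than 1 member.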

How the data were processed

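Polyadenylated RNA of 6 kidneys had been sequenced from TruSeq libraries. The authors processed the reads with CASAVA 1.8.2, Trimmomatic, TopHat2 2.0.11 and HTSeq, on mm9 per the labels, and deposited raw read counts per gene symbol, not normalized and not pooled. The annotation, counting mode and strand setting were not given in the sources used here. 0 columns of the deposited tables lacked a sample. Groups came from the labels.

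All 24422 symbols entered edgeR 4.0.16 (R 4.3.3): filterByExpr (15145 genes), TMM, and the quasi-likelihood test of FeD against control with Benjamini-Hochberg adjustment over all tested genes. The script was tested on simulated counts. Library totals were 16189041 to 20374327 in control and 13732173 to 20853293 in FeD kidneys. Pairs of replicates differed by more than sampling noise (chi-square per degree of freedom 3.77 to 30.4), so each counted as 1 sample. Positions and exon lengths came from the GENCODE annotation of NCBIM37 and promoters from RefSeq (GRCm38.p6). Of the 55 other pathway genes, 52 matched that annotation by symbol.

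The members, gene lists and markers were chosen with earlier results of these data known. Genes named are the members, the pathway list, the cell type markers, Tfrc and Slc11a2, genes overlapping or next to a member, and the 2 genes most alike to each member. Alternatives were DESeq2's size factors, library size alone, no filter, at least 10 counts in every sample, DESeq2 1.42.0, the replicate number as a block, each kidney left out, the longest transcript as length and, added after the data were seen, a sex term. The replicate numbers are shared by the groups only as numbers, since pups of differently fed dams are different animals. Only transcript levels could be read here. A gene of the planned pathway list was left out of all its counts and is not reported here.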

Additional observations from a re-analysis of the deposited data

How the results depend on the processing

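For the 10 enzymes, 128 alternative values kept their direction and their side of the threshold, and the other 2 were Qprt (-0.55) and Nadsyn1 (-0.50) without control kidney 3. For the other pathway genes, 573 such values kept both, 16 newly passed, 25 no longer passed and 21 changed sign. The number of pathway genes higher by 2-fold moved from 0 to 1 with no filter, and was 0 to 1 when single kidneys were left out. Without FeD kidney 2 the falls of Nnt (-0.99) and Nnmt (-0.97) were just under 2-fold. The changes of sign were of genes that did not pass the threshold. Ccbl2 was at -0.0069 with no filter, -0.018 with the replicate block and -0.092 with the sex term, and from -0.17 to 0.14 with kidneys left out. Pnp was at 0.0044 with DESeq2's size factors, 0.0070 with at least 10 counts and 0.0042 with DESeq2, and from -0.046 to 0.069 with kidneys left out. Slc3a2 was at -0.053 with the sex term and from -0.030 to 0.14 with kidneys left out. Leaving out single kidneys moved Tmem27 from -0.023 to 0.049, Slc7a5 from -0.20 to 0.20, Maoa from -0.044 to 0.51 and Sarm1 from -0.19 to 0.66. The cause was not tested. With the replicate number as a block, 1 member was higher and 9 lower as before, 7 pathway genes were higher and 17 lower, and the calls of Sirt2 (adjusted P = 0.056) and Ahr (adjusted P = 0.073) were lost. The deviations of same-numbered kidneys from their group means correlated at -0.16, 0.0001 and -0.03, and no kidney correlated best with its own number. Scaling alternatives moved the median of all genes by little, between -0.0038 and 0.0073. Genes with few counts, such as Tdo2, Ido1 and Ido2, are limited by depth, and 3 kidneys a group with unknown litters limit every value.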
